A study of Mus musculus with 19 samples.

Results

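The expression of luminal epithelial identity genes was examined in mouse mammary tissue. These are 9 genes taken by symbol from the 24421 genes counted: Krt8, Krt18, Krt19, Krt7, Epcam, Cdh1, Kit, Aldh1a3 and Cd14. They were selected by name, not by a threshold on a measured value. Total RNA-seq of whole mammary glands was available from 19 libraries, all labelled C57BL/6 (the methods name the substrain C57BL/6N). Mice were aged 8 to 12 weeks, which the sources used here do not give separately for each group. Wild-type (WT) tissue provided 3 libraries at day 6 of pregnancy (p6) and 3 at day 18 (p18). Tissue labelled Enhancer-delS1-4, in which the super-enhancer of the casein locus was deleted (ΔSE), provided 4 libraries at each stage. Another 2 libraries labelled p18 carry the genotype delCsn3-PE (ΔCsn3PE) and 3 the genotype delCsn1s2b-E (ΔCsn1s2bE), described in the labels as deletions of the proximal Csn3 enhancer and of the enhancer of Csn1s2b. The mutant lines were made with CRISPR/Cas9, and how many founders each line goes back to is not given in the sources used here. No agent was given to any group. The extraction notes of the 5 single-enhancer libraries name lactating WT tissue, so their stage is uncertain, and they have no WT libraries of their own. A difference between these lines and WT tissue therefore cannot be told apart from a difference between sets of libraries.

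The mammary gland is a bilayered epithelium, with luminal cells that line ducts and alveoli and a basal layer of myoepithelial cells that contract to expel milk. Luminal cells build their intermediate filaments from pairs of a type II keratin (Krt8, Krt7) and a type I keratin (Krt18, Krt19), and they adhere through the surface proteins Epcam and E-cadherin (Cdh1). Kit, a receptor tyrosine kinase, Aldh1a3, an enzyme that makes retinoic acid, and Cd14, a co-receptor for bacterial lipopolysaccharide, mark luminal progenitors, and during pregnancy the epithelium expands at the expense of the fat pad. In whole tissue, fewer cells of a type and less RNA of a gene per cell cannot be told apart.

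Krt7, Krt8 and Krt18 share a keratin cluster on chromosome 15 (GRCm38, the mm10 build). Krt8 (chr15:101996698-102004482, minus strand) and Krt18 (chr15:102028180-102032027, plus strand) are transcribed away from each other with 23697 bases between them, whereas Krt7 (chr15:101411043-101430313, plus strand) lies 566384 bases from Krt8. Krt19 is at chr11:100140810-100148665, Epcam at chr17:87635979-87651129, Cdh1 at chr8:106603351-106670246, Kit at chr5:75574916-75656722 and Aldh1a3 at chr7:66390890-66427517. The promoters of 4 members are printed. Krt8 and Krt18 are partners of a filament, and Krt7 moved in the opposite direction. Of the other members compared, Epcam followed the mean of Krt8 and Krt18 most closely across libraries. Krt19 followed that mean almost as closely but had no promoter entry in the source used. Each runs from 250 bases before to 50 bases after the gene start in RefSeq (GRCm38.p6), read 5′ to 3′ on the strand of the gene. Capitals mark the E-box CACCTG, the GC box GGGCGG and the TATA box TATAAA, on either strand.
Krt8 promoter, chr15:102004293-102004592, minus strand: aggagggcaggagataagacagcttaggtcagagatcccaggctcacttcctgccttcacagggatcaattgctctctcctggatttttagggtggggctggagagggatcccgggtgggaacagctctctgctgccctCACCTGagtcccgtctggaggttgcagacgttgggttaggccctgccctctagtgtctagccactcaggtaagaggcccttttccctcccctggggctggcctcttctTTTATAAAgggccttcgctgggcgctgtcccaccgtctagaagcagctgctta
Krt18 promoter, chr15:102027966-102028265, plus strand: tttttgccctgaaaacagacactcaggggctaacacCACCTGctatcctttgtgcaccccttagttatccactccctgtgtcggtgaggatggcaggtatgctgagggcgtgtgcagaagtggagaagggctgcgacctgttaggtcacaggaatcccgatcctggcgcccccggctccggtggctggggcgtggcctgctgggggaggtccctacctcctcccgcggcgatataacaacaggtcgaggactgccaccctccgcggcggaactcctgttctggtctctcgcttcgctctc
Krt7 promoter, chr15:101412153-101412452, plus strand: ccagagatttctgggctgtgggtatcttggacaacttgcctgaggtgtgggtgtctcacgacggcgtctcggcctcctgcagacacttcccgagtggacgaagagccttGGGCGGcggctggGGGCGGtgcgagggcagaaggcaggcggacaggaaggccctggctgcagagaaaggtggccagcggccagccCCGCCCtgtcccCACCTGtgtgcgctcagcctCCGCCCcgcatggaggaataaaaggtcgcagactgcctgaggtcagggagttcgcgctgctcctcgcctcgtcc
Epcam promoter, chr17:87635729-87636028, plus strand: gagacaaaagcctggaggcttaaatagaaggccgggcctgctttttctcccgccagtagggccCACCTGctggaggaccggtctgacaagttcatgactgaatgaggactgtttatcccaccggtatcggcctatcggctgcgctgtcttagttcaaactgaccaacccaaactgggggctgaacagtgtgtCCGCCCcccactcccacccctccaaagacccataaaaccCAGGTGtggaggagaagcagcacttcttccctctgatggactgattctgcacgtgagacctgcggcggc
CACCTG was found once in the Krt8, Krt18 and Krt7 promoters and at 2 places in that of Epcam, and 20.2% of 32851 promoters of this length hold it. GGGCGG, which 35.7% of the promoters hold, occurred 4 times in the Krt7 promoter, once in that of Epcam and not in those of Krt8 and Krt18. TATAAA, which 13.6% hold, was found only in the Krt8 promoter among these 4, as 2 overlapping matches on opposite strands. They begin at -3 and -1 relative to the RefSeq gene start and run across it. The STAT recognition motif TTCNNNGAA (8.3% of promoters) and the grainyhead motif AACNNGTT (4.2%) had no match in these 4 windows.

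WT and ΔSE libraries held 12335272 to 20525175 reads in genes, of which the ribosomal RNA precursor Rn45s took 21.7 to 42.9%, and the single-enhancer libraries held 26848053 to 30329601 reads with 0.0765 to 0.924% in Rn45s. Levels are given in CPM, the reads of a gene relative to the reads of its library, normalised with TMM factors that set a common scale across libraries. WT and ΔSE libraries were scaled together, and the single-enhancer libraries were scaled separately together with WT p18. A gene was called changed at an edgeR adjusted p under 0.05. Several libraries stood apart within their groups. WT p6 replicate 2 had a summed level of 5 milk genes (Wap, Csn2, Lalba, Glycam1, Olah) of 51.8 normalised CPM, against 1308 and 1035 in the other WT p6 libraries, and a sum of 7 fibroblast genes of 9235 against 1055 and 3938. Both sums of this library were near those of ΔSE p6 tissue, at 17.8 to 65.9 for the milk genes and 10021 to 12550 normalised CPM for the fibroblast genes. WT p18 replicates 2 and 3 held skeletal muscle RNA, with the muscle actin Acta1 at 229.7 and 361 against 1.64 normalised CPM in replicate 1 and 2.67 to 3.83 in ΔSE p18 tissue. All WT p6 libraries held muscle RNA too, with Acta1 at 244, 420 and 394 normalised CPM. ΔSE p6 replicates 2 and 4 likewise had summed levels of 8 muscle genes of 3049.94 and 3915 normalised CPM, against 55.7 and 132 in replicates 1 and 3, and ΔCsn1s2bE replicate 3 had 698 against 28.5 and 19. WT p6 replicate 1 differed most from the other WT p6 libraries in counts over genes and had the lowest fibroblast and macrophage sums of the 3.

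All 9 genes were detected in all 19 libraries. Per kilobase of transcript, so that genes can be compared, Krt18 had the highest level in each of the 6 groups, with a mean of 191 ± 41 normalised CPM per kb in WT p18 tissue (SD, n = 3). Krt19 (132 ± 25.1), Epcam (125 ± 23.8) and Krt8 (119 ± 25) followed, and the ranges of their libraries overlapped with one another and that of Krt19 with Krt18. Cdh1 (35.4 ± 10.4), Cd14 (28.0 ± 3.27) and Kit (23.6 ± 3.34 normalised CPM per kb) formed a lower tier whose neighbouring ranges also overlapped. Aldh1a3 (6.34 ± 0.469) and Krt7 (2.57 ± 0.789 normalised CPM per kb) were lowest and did not overlap. The transcript length used for Krt7 was 4094 bases, against 1437 to 1958 for the other keratins. The place of Krt7 per kb depends in part on that length. At p6 the WT order at the lower end differed, as Kit (20.8 ± 6.29) stood above Cd14 (16.1 ± 5.44) with overlapping ranges.

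To determine how luminal genes change as the gland prepares for lactation, WT tissue at p18 was compared with p6. In WT tissue 3 of the 9 genes were called, Krt18 and Cd14 higher and Krt7 lower at p18. Over all 17844 genes tested, 29.6% were called, 17.2% higher and 12.4% lower, so the share of the 9 members was near that of all genes. The median log2 fold change of the members was 0.47 and that of all genes -0.05. Krt18, the type I partner of Krt8, stood at 159, 205 and 139 normalised CPM in the 3 p6 libraries and at 207, 299 and 317 at p18. The highest p6 library thus lay just below the lowest p18 library, as in 22% of all genes without overlap upward, and the log2 fold change was 0.71 (SE 0.21, edgeR adjusted p = 0.0177). The call of Krt18 held in 3 of 6 fits that left out a library and was lost without WT p6 replicate 3 or WT p18 replicate 2 or 3 (edgeR adjusted p from 0.00750 to 0.0820). In a fit of the WT groups alone it was lost too (edgeR adjusted p = 0.0600). Krt8 was at 109.8, 201 and 148 normalised CPM at p6 and at 178, 249 and 271 at p18. Its groups overlapped through WT p6 replicate 2, and its log2 fold change of 0.60 (SE 0.24, edgeR adjusted p = 0.0644) did not pass the threshold. Krt19, at 107, 198 and 118 against 171, 201 and 249.7 normalised CPM, overlapped in the same way (log2 fold change 0.56, SE 0.24, edgeR adjusted p = 0.0913).

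Krt7, a type II keratin of simple ductal epithelia, was the exception among the member keratins. It fell from 16.6, 41.5 and 16.2 normalised CPM at p6 to 7.77, 9.70 and 14.1 at p18, with no overlap between the groups, as in 18.1% of all genes downward. The log2 fold change was -1.23 (SE 0.33, edgeR adjusted p = 0.0100), and without WT p6 replicate 2 it was -0.65 (edgeR adjusted p = 0.0672). In the annotation Krt7 overlaps Gm671 and Krt8 overlaps Gm36026, each on the opposite strand, and whether the counting used strand is not given in the sources used here.

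Among the surface proteins, Epcam had 161, 208 and 182 normalised CPM at p6 and 203, 263 and 299 at p18 in WT tissue. The p18 libraries were mostly higher, but the groups overlapped and the log2 fold change of 0.47 was not called (SE 0.19, edgeR adjusted p = 0.0663). Cdh1, the cadherin of adherens junctions, did not follow Epcam, with 166, 179 and 192 normalised CPM at p6 and 112, 154 and 204 at p18 (log2 fold change -0.19, SE 0.23, edgeR adjusted p = 0.578). Its p18 libraries spread on both sides of the p6 range.

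The progenitor markers diverged in WT tissue. Cd14 rose from 33.1, 29.7 and 16.2 to 51.7, 45.2 and 41.1 normalised CPM, without overlap between the groups (log2 fold change 0.81, SE 0.21, edgeR adjusted p = 0.00766, and 0.0544 in a fit of the WT groups alone). Cd14 is also a gene of monocytes and macrophages, and the summed level of 8 macrophage markers, none of them at 0, was 181 to 713 normalised CPM at p6 and 347 to 429.5 at p18, with 0 of 8 called. The part of macrophages in the Cd14 level was not tested. Kit was at 110.1, 141 and 75.1 normalised CPM at p6 and at 108, 119.6 and 142 at p18, values that overlapped throughout (log2 fold change 0.18, SE 0.19, edgeR adjusted p = 0.503). Aldh1a3 had 5.37, 61.8 and 8.39 normalised CPM at p6 and 23.4, 20.2 and 21.8 at p18. The p18 libraries were close together, whereas WT p6 replicate 2 lay far above the other p6 libraries. With it the log2 fold change was -0.22 (SE 0.57, edgeR adjusted p = 0.811), and without it 1.63 (SE 0.25, edgeR adjusted p = 0.000271), so 1 library decides the direction of Aldh1a3 in WT tissue.

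Leaving out WT p6 replicate 2 raised the members called in WT tissue to 5, all of them higher at p18. Over all 17732 genes of that fit 4958 were called, 2828 higher and 2130 lower. Krt8 then had a log2 fold change of 0.83 (edgeR adjusted p = 0.0183) and Krt19 of 0.86 (edgeR adjusted p = 0.00966). Leaving out the WT p18 replicates with muscle RNA keeps a lone p18 library, so only effect sizes are given. That library was then set against WT p6 libraries that all held muscle RNA. The log2 fold change was 0.98 for Cd14, 0.30 for Krt18 and -1.67 for Krt7. When reads were scaled by library totals 0 members rose and 1 fell in WT tissue, against 763 and 3663 of all genes.

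**Figure D1:**
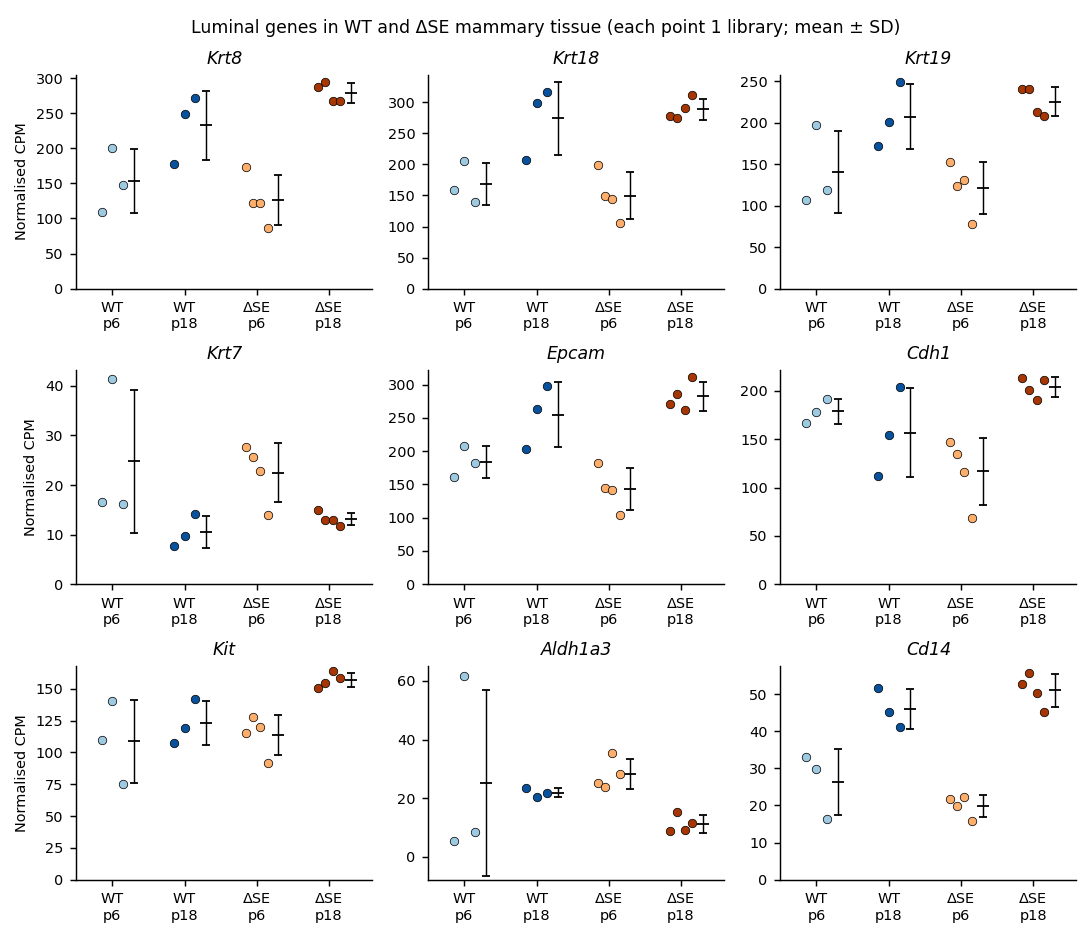
Normalised CPM (y axis) of the 9 luminal genes in the 14 WT and ΔSE libraries, by genotype and day of pregnancy (x axis), with each point a library and the bar the mean ± SD beside it. In ΔSE tissue the p18 points of Krt8, Krt18, Krt19, Epcam, Cdh1, Kit and Cd14 lie above all p6 points, and a lone WT p6 library at 61.8 sets the wide bar of Aldh1a3.

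The same comparison in ΔSE tissue asked whether the luminal genes change over pregnancy without the casein super-enhancer. Of the 9 genes 8 were called, 7 higher and 1 lower at p18, against 35.6% of all 17844 genes, 17.3% higher and 18.3% lower. The median log2 fold change of the members was 0.90 and that of all genes -0.07. In the 7 genes that rose, all 4 p18 libraries were above all 4 p6 libraries, which held for 18.8% of all genes tested. Markers of several other cell types fell over the same interval, whereas the summed level of 10 myoepithelial genes, of which 4 rose and 2 fell, was 969.5 to 1431 normalised CPM at p6 and 1899.6 to 2050.05 at p18 in ΔSE tissue. In WT tissue, where 5 of these genes rose and 1 fell, the myoepithelial sum was 694 to 1351 and 1976 to 2195. The summed level of 8 skeletal muscle genes, of which 8 fell, was 55.7 to 3915 normalised CPM at p6 and 5.62 to 15.5 at p18, and that of the 7 fibroblast genes, of which 6 fell, was 10021 to 12550 and 3390 to 6202. Of 8 adipocyte genes 5 fell, and the part of these cells in the rise of the luminal genes was not tested. When reads were scaled by library totals 1 member rose and 2 fell in ΔSE tissue, against 628 and 7967 of all genes. Leaving out ΔSE p6 replicates 2 and 4, which held muscle RNA, gave 5 members higher and 1 lower among 4031 genes called. Krt19 (log2 fold change 0.65, edgeR adjusted p = 0.0505) and Kit (0.39, edgeR adjusted p = 0.167) then lost their calls.

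Krt8 was at 174, 123, 123 and 86.4 normalised CPM at p6 and at 288, 295, 267 and 268 at p18 in ΔSE tissue. The lowest p18 library was well above the highest p6 library, and Krt8 rose 2.21-fold (log2 fold change 1.14, SE 0.21, edgeR adjusted p = 0.000501). Krt18 rose from 199, 149, 144 and 106 to 277, 274, 291 and 311 normalised CPM (log2 fold change 0.95, SE 0.18, edgeR adjusted p = 0.000849). Krt19 rose from 152, 124, 131 and 78.2 to 241, 241, 213 and 208 normalised CPM (log2 fold change 0.90, SE 0.21, edgeR adjusted p = 0.00321). In all 3 keratins ΔSE p6 replicate 4 was the lowest library. Krt7 again moved against them, from 27.6, 25.7, 22.7 and 14 to 14.9, 12.8, 13 and 11.8 normalised CPM. The lowest p6 library overlapped the p18 range, and the log2 fold change was -0.78 (SE 0.28, edgeR adjusted p = 0.0433). The call of Krt7 held in 1 of the 8 fits that left out a library, that without ΔSE p6 replicate 4, and its edgeR adjusted p ran from 0.0201 to 0.125.

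Epcam rose from 181, 144, 142 and 104 to 271, 286, 262 and 312 normalised CPM in ΔSE tissue (log2 fold change 0.98, SE 0.16, edgeR adjusted p = 0.000239). Cdh1 rose from 147, 135, 116 and 68.6 to 213, 202, 190.2 and 211 normalised CPM (log2 fold change 0.80, SE 0.20, edgeR adjusted p = 0.00557). Both surface genes were most even at p18, where their libraries lay within a narrow band.

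Cd14 had the largest rise of the 9 genes in ΔSE tissue, from 21.7, 19.8, 22.1 and 15.7 to 52.8, 55.7, 50.3 and 45.3 normalised CPM (2.57-fold, log2 fold change 1.36, SE 0.18, edgeR adjusted p = 3.81e-05). The macrophage sum moved the other way, from 485 to 653 normalised CPM at p6 to 315 to 404 at p18, with 4 of 8 markers lower. Its part in the Cd14 level was not tested here either. Kit rose from 115, 128, 120.1 and 91.7 to 151, 154, 164 and 159 normalised CPM (log2 fold change 0.46, SE 0.16, edgeR adjusted p = 0.0340, and -0.12 with library totals). The call of Kit held in 3 of 8 fits that left out a library (edgeR adjusted p from 0.0308 to 0.0789), being lost without ΔSE p6 replicate 4 or any p18 replicate. Mast cells also express Kit, and the sum of 7 mast cell markers, none of them at 0, fell from 44.7 to 97.3 normalised CPM at p6 to 12.6 to 20.7 at p18, with 6 of 7 lower. Among them Cpa3, a mast cell carboxypeptidase, had a log2 fold change of -2.43 (SE 0.29). The number of Kit reads per Cpa3 read was 3.10 to 8.05 at p6 and 29.7 to 51.1 at p18 in ΔSE tissue. In WT tissue it was 8.1 to 36.4 and 14.1 to 21.7, which overlapped. The part of mast cells in the Kit level was not tested. Aldh1a3 was at 25.1, 23.9, 35.5 and 28.4 normalised CPM at p6 and at 8.66, 15.1, 9.09 and 11.6 at p18. All p6 libraries were above all p18 libraries, as for 19.3% of all genes, while the test just missed the threshold (log2 fold change -1.35, SE 0.51, edgeR adjusted p = 0.0521).

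**Figure D2:**
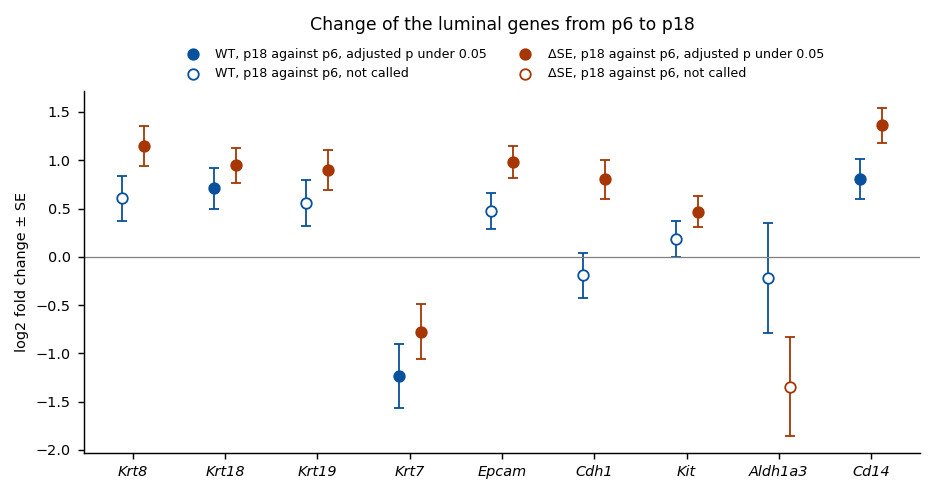
Log2 fold change from p6 to p18 (y axis, bars are the standard error) of each luminal gene (x axis) in WT and ΔSE tissue, with filled points for an edgeR adjusted p under 0.05. Krt7 lies below 0 in both genotypes, at -1.23 and -0.78, and the ΔSE points of the 7 genes that rose lie above the WT points.

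Differences between the genotypes were tested directly. At p18, 0 of 9 members were called between ΔSE and WT tissue with edgeR or DESeq2. Over all 17844 genes edgeR called 0.314% and DESeq2 called 496. Of the members, 0 had an unadjusted edgeR p under 0.05. The log2 differences ranged from 0.07 for Krt18 (SE 0.20) to 0.38 for Cdh1 (SE 0.22) among the 8 genes with a positive value. Aldh1a3 had the only negative value, at -0.98 (SE 0.55, edgeR adjusted p = 0.485), and its 4 ΔSE libraries (8.66 to 15.1 normalised CPM) were all below the 3 WT libraries (20.2 to 23.4). In a fit of only these groups the Aldh1a3 difference was -0.94 and passed the test (edgeR adjusted p = 0.00604). That fit called 824 of 16547 genes, against 56 of 17844 in the main fit. Kit was higher in every ΔSE library (151 to 164) than in every WT library (108 to 142 normalised CPM) without passing the test (log2 difference 0.35, SE 0.18, edgeR adjusted p = 0.430). Such separation at p18 was found in 5.28% of all genes upward and 9.8% downward.

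At p6, 0 of 9 members were called with edgeR or DESeq2, against 1.03% of all genes by edgeR, and 1 had an unadjusted p under 0.05. This was Cdh1, with 68.6 to 147 normalised CPM in ΔSE and 166 to 192 in WT tissue, which did not overlap, as in 4.99% of all genes downward and 6.36% upward (log2 difference -0.62, SE 0.22, edgeR adjusted p = 0.155). The other members ranged from -0.41 for Cd14 to 0.15 for Aldh1a3. Without WT p6 replicate 2 the Aldh1a3 difference was 2.00 (SE 0.25, edgeR adjusted p = 0.000163). That fit called 1767 of 17732 genes, against 183 of 17844 in the main fit.

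The genotype by stage interaction, which asks whether the change from p6 to p18 differed between the genotypes, called 0 of 9 members with edgeR and 0.151% of all genes. Here 8 of 9 estimates were positive, with a median of 0.45 against -0.06 over all genes. The largest was Cdh1 at 0.99 (SE 0.31), with an unadjusted p of 0.00517 and an edgeR adjusted p of 0.146. DESeq2 called this gene (adjusted p = 0.0315), and it called 597 of 17844 genes against 27 with edgeR. Aldh1a3 was at -1.13 (SE 0.77, edgeR adjusted p = 0.484) and, without WT p6 replicate 2, at -2.95 (SE 0.31, edgeR adjusted p = 0.000312). Without that library 1036 of 17732 genes were called in the interaction, against 27 of 17844 with it. The larger number of calls in ΔSE than in WT tissue is thus not shown to be a difference between the genotypes.

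As an index of epithelial share, the levels of Krt8, Krt18, Epcam and Cdh1 were summed in each library. The sum was 596, 793 and 662 normalised CPM in WT p6 libraries and 699.6, 965 and 1091 at p18, with overlap between the stages. In ΔSE tissue it was 701, 551, 525 and 364 at p6 and 1049, 1057, 1010.1 and 1101 at p18, without overlap. The p18 libraries of ΔSE tissue were within the range of WT p18 except for the highest. Scaled by library totals, which include Rn45s and milk mRNA, the sum was 533 to 928 CPM at p6 and 589 to 1019.7 at p18 in WT tissue and 476 to 849 against 744 to 1009 in ΔSE tissue, so that the stages overlapped in both genotypes. Totals without Rn45s and milk genes gave 633 to 1228 at p6 and 1415 to 1700 at p18 in ΔSE tissue, without overlap. In WT tissue they gave 900 to 1371 and 1040 to 1642, which overlapped.

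The balance of luminal to basal keratins was read as the ratio of Krt8 and Krt18 reads to Krt5 and Krt14 reads, the keratins of the basal layer. It was 5.01, 2.30 and 2.32 in WT p6 and 4.55, 6.92 and 7.11 in WT p18 libraries, and in ΔSE tissue 2.30 to 3.04 at p6 and 6.96 to 7.91 at p18. With the contractile genes Acta2 and Myh11 and the oxytocin receptor Oxtr as the basal genes the direction in WT tissue was opposite, from 0.504 to 0.633 at p6 to 0.292 to 0.402 at p18. In ΔSE tissue that ratio was 0.294 to 0.467 at p6 and 0.386 to 0.421 at p18. Acta2 (log2 fold change 1.73 in WT and 1.12 in ΔSE tissue) and Myh11 (1.33 and 1.23) rose over pregnancy while Krt5 fell (-0.81 and -0.79). Krt14 overlapped between the stages in both genotypes. It was at 24.1 to 95.0 normalised CPM at p6 and 46.3 to 51.7 at p18 in WT tissue. In ΔSE tissue it was at 43.6 to 72.6 and 40.7 to 52.6.

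**Figure D3:**
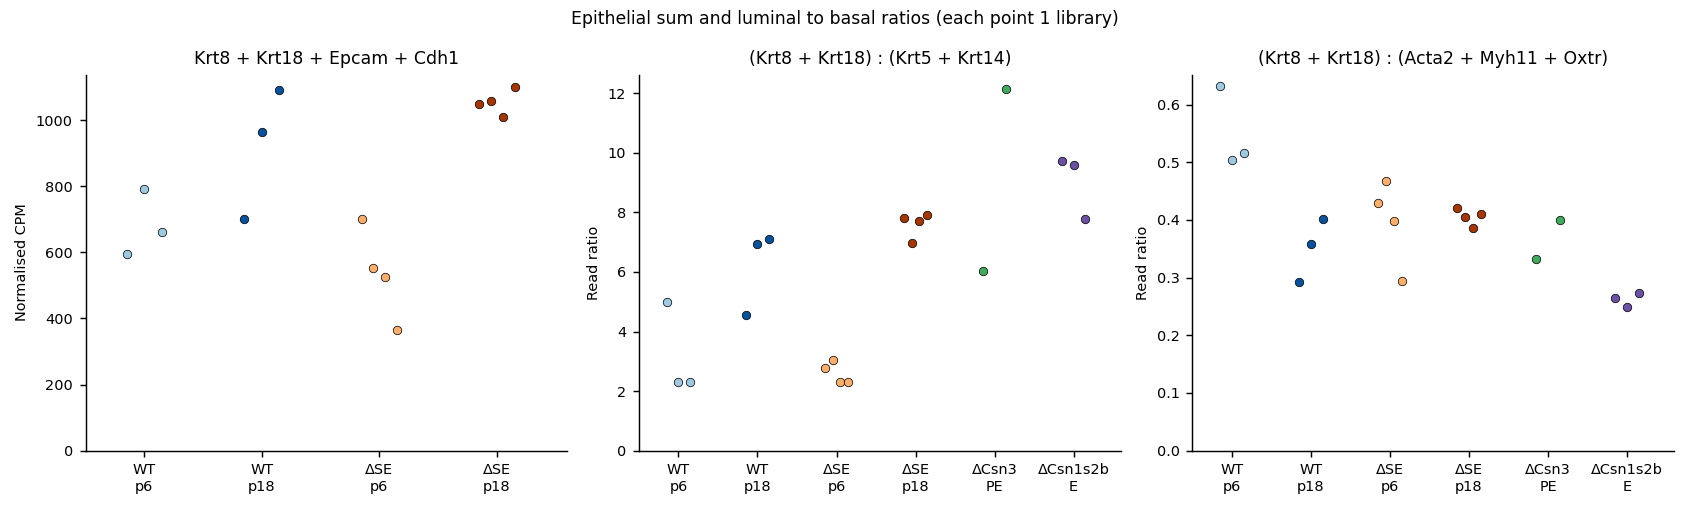
Left, summed normalised CPM of Krt8, Krt18, Epcam and Cdh1 in each WT and ΔSE library; middle and right, ratio of Krt8 and Krt18 reads to reads of Krt5 and Krt14 or of Acta2, Myh11 and Oxtr in all 19 libraries, by group (x axis). The sum lies at 1010.1 or above in all ΔSE p18 libraries, and the fall of the right-hand ratio from WT p6 to WT p18 is opposite to the middle panel.

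Ratios between genes of 1 library do not depend on the scaling. The number of Krt8 reads per Krt18 read was 0.690 to 1.07 in WT p6, 0.831 to 0.858 in WT p18, 0.818 to 0.875 in ΔSE p6 and 0.860 to 1.07 in ΔSE p18 libraries. These are ratios of reads without correction for length. The ranges of WT p18 and ΔSE p18 did not overlap but almost touched, at 0.858 and 0.860. Krt19 per Krt18 was 0.670 to 0.963 in the same libraries. Krt7 per Krt18 was lower at p18, with 0.104 to 0.202 at p6 and 0.0324 to 0.0445 at p18 in WT tissue and 0.132 to 0.172 against 0.0380 to 0.0538 in ΔSE tissue. Cdh1 per Epcam was 0.858 to 1.06 in WT p6 and 0.554 to 0.684 in WT p18 libraries, which did not overlap, whereas the ΔSE ranges of 0.660 to 0.937 and 0.677 to 0.785 did.

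**Figure D4:**
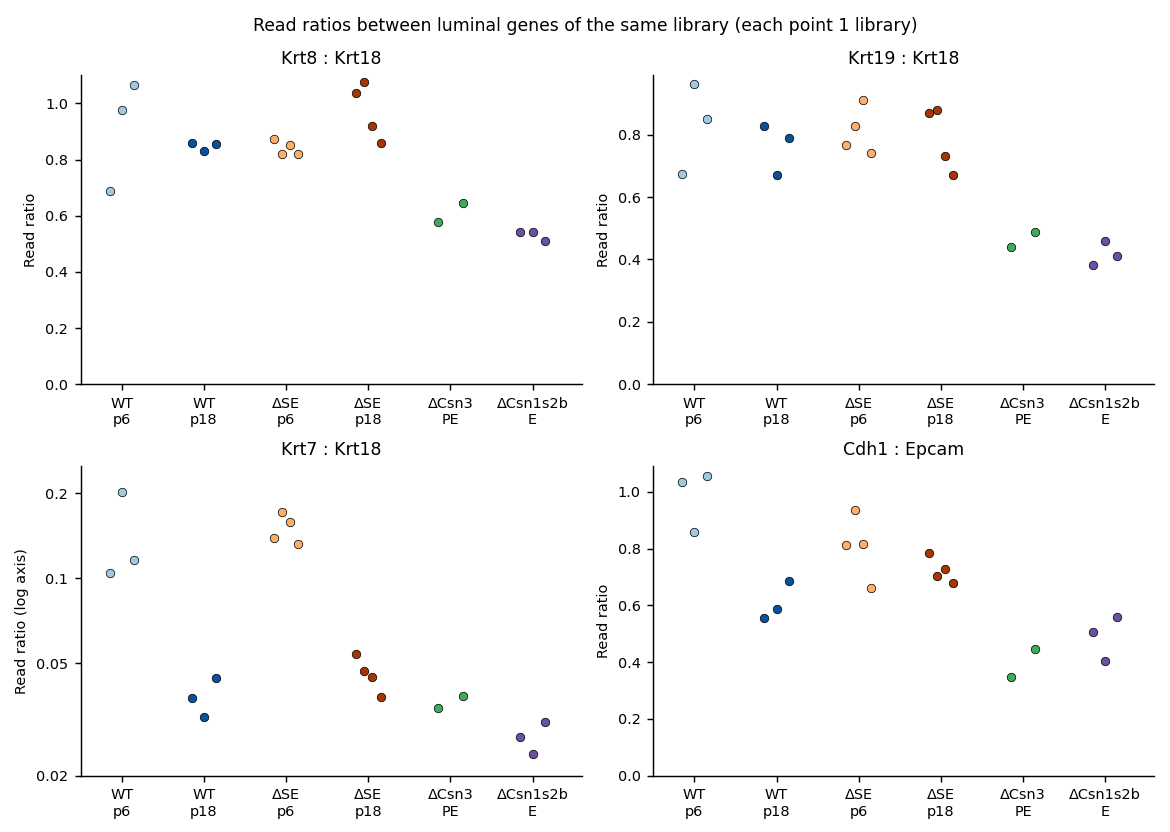
Read ratios between luminal genes within each of the 19 libraries (y axis, log scale for Krt7 to Krt18) by group (x axis), with each point a library. The 5 single-enhancer libraries lie below the 14 WT and ΔSE libraries for Krt8 and Krt19 per Krt18 read, and the p18 libraries lie below the p6 libraries for Krt7 per Krt18 read.

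Other genes of the luminal programme were described from lists. Of 13 epithelial surface and junction genes 9 rose and 2 fell in WT tissue, with a median log2 fold change of 0.94 against -0.05 over all genes, and 11 rose and 2 fell in ΔSE tissue, with a median of 1.42. Cd24a, a surface glycoprotein of mammary epithelium, rose from 143 ± 18.4 to 498 ± 92.0 normalised CPM in WT tissue (SD, n = 3) and from 118 ± 39.6 to 527 ± 65.4 in ΔSE tissue (SD, n = 4). The serine protease Prss8 rose with log2 fold changes of 1.33 (SE 0.16) and 1.69 (SE 0.14), and the membrane protease St14 with 2.06 (SE 0.17) in ΔSE tissue. Of the 5 cadherin partners that were tested, Jup, which links cadherins to the cytoskeleton, rose in both genotypes (0.82, SE 0.17, and 0.72, SE 0.14) and the others were not called.

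Of 13 epithelial transcription and splicing factors 5 rose and 1 fell in WT tissue and 9 rose and 1 fell in ΔSE tissue, with medians of 0.48 and 1.09. Esrp2, a regulator of epithelial splicing, rose with log2 fold changes of 1.01 (SE 0.15) in WT and 1.58 (SE 0.13) in ΔSE tissue. Foxa1, a factor of hormone-sensing luminal cells, fell in WT tissue, from 17.5 ± 14.2 to 0.933 ± 0.378 normalised CPM (log2 fold change -4.19, SE 0.58), and all 7 hormone-sensing luminal markers fell in both genotypes. Elf5, a factor of alveolar cells, rose from 36.2 ± 10.6 to 463 ± 105 normalised CPM in ΔSE tissue. At p6, 3 of these 13 factors were lower in ΔSE than in WT tissue, namely Esrp1 (-0.74, SE 0.15), Elf5 (-1.55, SE 0.34) and Esrp2 (-0.63, SE 0.14), while 1.03% of all genes were called. These calls lay near the threshold (edgeR adjusted p from 0.0337 to 0.0458), and 0 of 17246 genes were called at p6 in a fit of these groups alone.

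Of 10 luminal progenitor genes 6 rose and 1 fell in WT tissue and 6 rose and 3 fell in ΔSE tissue. Over all genes 17.2% rose and 12.4% fell in WT tissue, and 17.3% rose and 18.3% fell in ΔSE tissue. No gene that fell was among the 3 of smallest p in either genotype. The genes with the smallest p were Wfdc18, a small secreted protein (log2 fold change 4.19 in WT, SE 0.26, and 3.83 in ΔSE tissue, SE 0.22), and Plet1, an epithelial surface protein (2.39, SE 0.20, and 2.79, SE 0.18). In WT tissue the iron carrier Trf, which is secreted into milk, rose from 1814 ± 1093 to 17752 ± 3494 normalised CPM. The summed level of the 10 genes was 17220 to 23959 normalised CPM at WT p18, so Trf made up most of it. A change in the share of progenitors was not tested. Of 8 partners of Cd14, 6 rose in WT and 5 in ΔSE tissue and none fell. Lbp, which hands lipopolysaccharide to Cd14, rose with log2 fold changes of 2.13 (SE 0.34) and 2.5 (SE 0.30), and the receptor Tlr2 with 1.49 (SE 0.22) and 1.75 (SE 0.19).

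The remaining lists had shares of called genes near or below those of all genes in WT tissue. Of 7 genes of Kit signalling, 0 rose and 1 fell in WT tissue and 1 rose and 1 fell in ΔSE tissue. The ubiquitin ligase Cbl fell in both (-0.32, SE 0.12, and -0.36, SE 0.10), and the kinase Lyn rose in ΔSE tissue (0.65, SE 0.13). Of 13 retinoic acid genes tested, 1 rose and 3 fell in WT and 1 rose and 7 fell in ΔSE tissue. Crabp2, a carrier of retinoic acid, rose (2.13, SE 0.36, and 2.62, SE 0.32), whereas the receptor genes Rara (-0.89, SE 0.21) and Rarg (-0.59, SE 0.12) fell in WT tissue and the retinol transporter Stra6 fell in ΔSE tissue (-2.90, SE 0.45). Of 9 other keratins tested none rose, and Krt5 was the only one that fell in WT tissue, with Krt5 and Krt80 lower in ΔSE tissue.

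The genes whose levels followed the mean of Krt8 and Krt18 most closely were sought over 14 WT and ΔSE libraries. The measure was the root mean square difference of log2 levels, each centred on its own mean, over 2356 genes other than members with enough reads. Among the nearest were Ptbp3 (0.177), Clstn1 (0.192), Slc12a2 (0.195) and Cct2 (0.195), encoding an RNA-binding protein, a calsyntenin, an ion cotransporter and a chaperonin subunit. Among the members, Epcam (0.119) and Krt19 (0.128) were nearer than any of these, and Cdh1 (0.352) and Kit (0.36) were farther. These distances share libraries and scaling and are a description.

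The single-enhancer lines were compared with WT p18 tissue, on a scale of their own. In ΔCsn1s2bE tissue 2 of 9 members were called, both lower, against 32.3% of 17125 genes, 17.2% higher and 15% lower. Krt8 was at 183, 260.2 and 279 normalised CPM in WT libraries and at 138, 139 and 157 in ΔCsn1s2bE libraries. All 3 mutant libraries were below all 3 WT libraries, as in 21.6% of all genes (25% were above), with a log2 difference of -0.73 (SE 0.17, edgeR adjusted p = 0.00776). Krt19 was at 177, 210.5 and 256 against 97.6, 118 and 126 normalised CPM, again without overlap (log2 difference -0.91, SE 0.16, edgeR adjusted p = 0.00267). Krt18, at 213, 313 and 325 against 255, 257 and 307 normalised CPM, overlapped and was not called (log2 difference -0.06, SE 0.17, edgeR adjusted p = 0.832). The summed level of the 5 milk genes was 37129 to 55180.1 normalised CPM in WT p18 and 67558 to 118737 in ΔCsn1s2bE libraries, that of the fibroblast genes was 5119 to 6759 and 2520.02 to 3446, and their part in the keratin levels was not tested. Scaling by library totals called 5444 genes higher and 874 lower in place of 2950 and 2576, and ended the calls of Krt8 (log2 difference -0.34, edgeR adjusted p = 0.246) and Krt19 (-0.53, edgeR adjusted p = 0.0633), while Epcam was called higher (0.74, edgeR adjusted p = 0.0116).

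In ΔCsn3PE tissue 2 of 9 members were called, both higher, against 25.2% of all genes, 13.7% higher and 11.5% lower. Epcam was at 378 and 409.6 normalised CPM against 209, 275 and 307 in WT libraries (log2 difference 0.58, SE 0.17, edgeR adjusted p = 0.0331). Both mutant libraries were above the WT range, as in 27.3% of all genes (24.1% were below), and the call of Epcam held in 1 of 5 fits that left out a library, that without WT p18 replicate 3. Cd14 was at 126 and 72.4 normalised CPM against 53.4, 47.3 and 42.2 (log2 difference 1.06, SE 0.23, edgeR adjusted p = 0.00885), and without ΔCsn3PE replicate 1 the difference was 0.60 and not called (edgeR adjusted p = 0.0970). The mutant libraries differed from each other more than the WT libraries did, and the macrophage sum was 413 to 449 in ΔCsn3PE and 358 to 441 normalised CPM in WT p18 tissue. The milk gene sum was 133921 and 65009 normalised CPM in the ΔCsn3PE libraries and 37129 to 55180 in WT p18 libraries. The fibroblast sum was 2084 and 2964 against 5119 to 6759, and the part of these cells in the Epcam and Cd14 levels was not tested. Of the 8 Cd14 partners 5 were higher, among them Tlr4, the signalling receptor for lipopolysaccharide (1.17, SE 0.27), and Ly96, its bound co-receptor (1.03, SE 0.23). The summed level of the 8 partners was 358 and 574 normalised CPM in the ΔCsn3PE libraries and 229 to 321 in WT p18 tissue. Krt19 was at 142 and 167 normalised CPM, below all WT libraries, with a log2 difference of -0.48 that was not called (SE 0.18, edgeR adjusted p = 0.0807). Scaling by library totals called 5103 genes higher and 627 lower in ΔCsn3PE tissue in place of 2353 and 1968, and 3 members higher.

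Between the single-enhancer lines 0 of 9 members were called with edgeR, against 0.181% of all genes, and 4 had an unadjusted p under 0.05. In 6 members all ΔCsn1s2bE libraries were below both ΔCsn3PE libraries, which held for 10% of all genes, and 0 members were above, against 10.8%. DESeq2 called Cd14 (adjusted p = 0.0114), for which edgeR gave a log2 difference of -0.99 for ΔCsn1s2bE against ΔCsn3PE (SE 0.23, edgeR adjusted p = 0.241). Of 17125 genes DESeq2 called 99 and edgeR 31. In both lines Krt8 per Krt18 was lower than in all 14 WT and ΔSE libraries, at 0.578 and 0.644 in ΔCsn3PE and 0.512 to 0.543 in ΔCsn1s2bE libraries. Krt19 per Krt18 was likewise lower, at 0.439 and 0.487 and at 0.382 to 0.460. Because this ratio was shared by both lines and no WT libraries were made with them, genotype and set of libraries cannot be told apart. Among other genes, Jup was lower in both lines than in WT tissue (-0.90, SE 0.17, in ΔCsn1s2bE and -0.81, SE 0.19, in ΔCsn3PE), Krt17 was lower (-1.91, SE 0.32, and -1.07, SE 0.35), and Ocln, a tight junction protein, was higher (0.71, SE 0.13, and 0.75, SE 0.14).

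**Figure D5:**
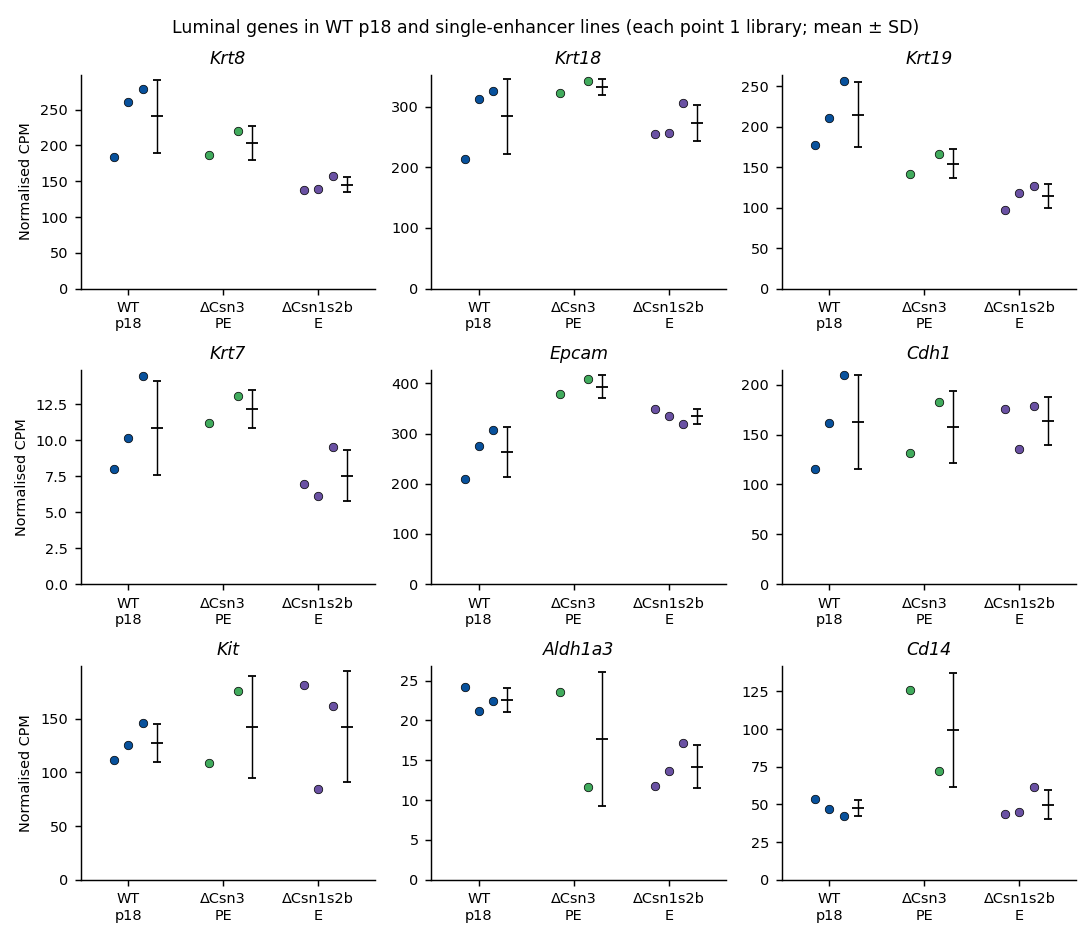
Normalised CPM (y axis) of the 9 luminal genes in WT p18, ΔCsn3PE and ΔCsn1s2bE tissue (x axis), scaled over these 8 libraries, with each point a library and the bar the mean ± SD. Krt8 and Krt19 of ΔCsn1s2bE lie below the WT points, and Epcam and Cd14 of ΔCsn3PE lie above them.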

How the data were processed

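Per the labels of all 19 libraries, total RNA of frozen mammary tissue was depleted of ribosomal RNA and sequenced as stranded paired-end libraries. The authors trimmed reads with Trimmomatic (version 0.36), mapped them to mm10 (STAR, version 2.5.4a) and assigned them to genes (HTSeq, version 0.9.1). The deposited values are raw counts, with no normalization. Summary entries that name no gene were left out, and in the 5 files that held them they took 13.2 to 20.9% (outside genes), 0.672 to 0.821% (ambiguous) and 8.57 to 9.62% (alignment not unique) of entries.

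Counts were tested with edgeR (version 4.0.16, R version 4.3.3), using the quasi-likelihood functions glmQLFit and glmQLFTest after TMM scaling. A gene entered with 10 or more reads summed over libraries, with Benjamini-Hochberg adjustment over all genes tested. The 14 libraries of WT and ΔSE tissue were fitted together as 4 groups, and the 8 of WT p18 and single-enhancer tissue as 3 groups. Libraries were grouped by their labels. Replicates are described as independent, and p-values measure only the spread between these libraries. Levels per kilobase used the length of the principal transcript in GENCODE M21. Epithelial sums and read ratios were not tested. Alternatives were DESeq2 (version 1.42.0), other scalings and filters, thinned counts, 1 factor of unwanted variation, separate fits of the groups compared, a block for the replicate number and omission of each library in turn. Leaving out the WT p18 or ΔSE p6 libraries of high muscle RNA was chosen after the data were seen.

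The members and lists were chosen with earlier results of these data known. Of each list, at most the 3 called genes of smallest p were eligible to be named. Markers of other cell types, and genes used in sums, ratios or beside a result, were named after their values were seen. Genes listed as nearest had a mean of at least 50 normalised CPM. Not every gene among the nearest is reported here. Promoters were matched by symbol in a RefSeq table, which held 5 of the 9 members. Protein sequences were not used here.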

Additional observations from a re-analysis of the deposited data

How the results depend on the processing

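The count of members called depended on the setting. Scaling by library totals gave 1 member called in WT tissue (p18 against p6), 3 in ΔSE tissue and 1 in ΔCsn1s2bE against WT, and moved the all-gene median (log2) from -0.05 to -0.42 in WT and from -0.07 to -0.65 in ΔSE tissue, and to 0.40 and 0.42 in ΔCsn1s2bE and ΔCsn3PE against WT. It called 763 genes higher and 3663 lower in WT tissue, against 3068 and 2211 with TMM, and 628 higher and 7967 lower in ΔSE tissue, against 3083 and 3265. Under it Kit in ΔSE tissue reversed to -0.12, and the log2 change of the epithelial sum was 0.058 in WT and 0.42 in ΔSE tissue, against 0.41 and 1.01. With totals that left out Rn45s and milk genes, the change of this sum was 0.21 in WT and 0.74 in ΔSE tissue. Aldh1a3 in WT tissue reversed to 1.63 without WT p6 replicate 2 and ranged from -0.68 to 1.63 over the libraries left out in turn. With 1 factor of unwanted variation, 0 members were called in WT and ΔSE tissue and 4 in ΔCsn1s2bE against WT, where 70, 0 and 5115 of all genes were called. A fit of only the groups compared called 1 in WT tissue, 1 in ΔSE against WT at p18 and 1 in ΔCsn3PE against WT. Over all genes it called 3478 of 16920, 824 of 16547 and 3666 of 16522 there, against 5279, 56 and 4321 in the main fits. DESeq2 called 1 in the interaction and 1 between the single-enhancer lines, where it called 597 and 99 of all genes against 27 and 31 with edgeR. With Acta2, Myh11 and Oxtr as basal genes the log2 change of the luminal to basal ratio was -0.66 in WT and 0.051 in ΔSE tissue, against 1.02 and 1.55. The cause of these changes was not tested.

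Same-numbered replicates did not deviate together in every pair, so the numbers were not taken as pairs. With the replicate number as a block 1 member was called in ΔCsn3PE against WT, where Epcam had an adjusted p of 0.0833.

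Leaving out 1 library at a time gave 2 to 5 members called in WT tissue, 6 to 7 in ΔSE tissue, 0 in ΔSE against WT at p18, 0 to 1 at p6, 0 to 1 in the interaction, 2 to 3 in ΔCsn1s2bE and 1 to 2 in ΔCsn3PE against WT, and 0 to 1 between these lines. Calls over all genes in WT tissue ran from 3867 to 5118 in these fits. Without WT p6 replicate 2, 1767 of 17732 genes were called between the genotypes at p6 and 1036 in the interaction, against 183 and 27 in the main fit. Over the libraries left out in turn, the log2 change of the epithelial sum was 0.28 to 0.60 in WT and 0.84 to 1.16 in ΔSE tissue. Its genotype difference was 0.04 to 0.36 at p18 and -0.52 to -0.21 at p6. The luminal to basal ratio changed by 0.84 to 1.40 in WT and 1.5 to 1.63 in ΔSE tissue, with genotype differences of 0.11 to 0.43 at p18 and -0.40 to 0.16 at p6. The Krt8 to Krt18 ratio changed by -0.27 to 0.05 in WT and 0.15 to 0.26 in ΔSE tissue, with genotype differences of 0.14 to 0.25 at p18 and -0.28 to 0.03 at p6. Other settings that left several libraries in each group kept each count of members within 1.5 times its reported value. With 2 ΔCsn3PE libraries and up to 42.9% of reads in Rn45s, small differences may not be detectable at this depth.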
